A study of Mus musculus with 12 samples.

Results

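A set of 7 genes of glucose and lactate handling were followed in the cerebral cortex of 12 mice. These were the lactate carriers Slc16a1, Slc16a3 and Slc16a7, the chaperone Bsg, the glucose transporter Slc2a3, and the lactate dehydrogenase genes Ldha and Ldhb. They are 7 of 54232 gene identifiers in the count table, and all 7 passed the filter on low counts. The genes were chosen by their function and with earlier mutant against wild-type values of these same counts in view. Every genotype difference below is therefore a description, and the comparison of females with males is the test that the choice did not use.

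The 6 mutants were homozygous for the Y446C allele of Tbl1xr1, with no promoter or Cre named that would limit it to some cells, and the 6 others were wild type. Each genotype had 3 females and 3 males, all C57BL/6J and 12 weeks old, with no further allele or agent. The mice were bled to death and the cortex was frozen at once, so each library is the bulk messenger RNA of 1 mouse. The Tbl1xr1 protein belongs to the NCoR corepressor, which silences targets of nuclear receptors, and the series presents the mice as a model of Pierpont syndrome. A library is called by its sex, its genotype and the number of its mouse.

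Female mutant 3 differed from the other libraries: it held 3748515 gene counts, 31.6% of them mitochondrial, where the 11 others held 21238427 to 32669138, with 5.23% to 10.4% mitochondrial. Member values that this library moves are given with and without it. The mitochondrial share also separated the female genotypes when female mutant 3 was set aside. It was 9.96% for female mutant 1 and 8.97% for female mutant 6, while female wild types ranged from 5.23% to 7.89%. Male genotypes overlapped, with mutants at 5.57% to 6.51% and wild types at 5.79% to 10.4%, the highest being wild type 8. The part of this share in the member values was not tested. Levels are in CPM, that is, counts scaled to a library of 1e+06 on TMM-adjusted totals. The level that a count of 0 still allows was 1.16 CPM in female mutant 3 and 0.0861 to 0.137 CPM elsewhere, for counting error alone. Of the markers that define cortical tissue, all 5 of neurons, 5 of astrocytes and 5 of oligodendrocytes were detected. In bulk tissue, fewer cells of a type and less RNA per cell cannot be told apart.

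Brain cells take up glucose through GLUT proteins and break it down to pyruvate, which lactate dehydrogenase converts to lactate and back. The enzyme is built from Ldha and Ldhb subunits; those rich in Ldha are known from tissues that make lactate, and those rich in Ldhb from tissues that burn it. Lactate crosses membranes with a proton through monocarboxylate carriers, and in brain it is thought to pass from glia to neurons. Slc16a1 encodes MCT1, found in endothelium and glia, including oligodendrocytes. Slc16a3 encodes MCT4, a carrier of lactate-exporting cells such as astrocytes, and Slc16a7 encodes MCT2, the high-affinity carrier of neurons. Bsg encodes basigin, which brings MCT1 and MCT4 to the cell surface, and Slc2a3 encodes GLUT3, the main glucose transporter of neurons.

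The promoters of Slc16a1, Ldha and Ldhb are shown because Slc16a1 is the member whose genotypes did not overlap in females or in males, in opposite directions, and because the dehydrogenase genes are the pair compared as a ratio below. Sequences are the 250 bases before the annotated start, from RefSeq on GRCm38.p6, written along the strand of the gene. Capitals mark ACGTG on either strand, the core of the hypoxia-inducible factor site, and a CACGTG holds a match on each strand. RefSeq windows matched 4 of the 7 members, Slc16a1, Slc16a3, Ldha and Ldhb.
Slc16a1, chr3:104638414-104638663, plus strand: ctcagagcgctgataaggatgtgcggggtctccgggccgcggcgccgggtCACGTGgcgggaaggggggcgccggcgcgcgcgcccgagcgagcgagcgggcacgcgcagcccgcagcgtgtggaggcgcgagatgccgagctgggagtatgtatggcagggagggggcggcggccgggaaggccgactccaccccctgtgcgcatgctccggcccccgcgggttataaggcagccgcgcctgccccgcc
Ldha, chr7:46845554-46845803, plus strand: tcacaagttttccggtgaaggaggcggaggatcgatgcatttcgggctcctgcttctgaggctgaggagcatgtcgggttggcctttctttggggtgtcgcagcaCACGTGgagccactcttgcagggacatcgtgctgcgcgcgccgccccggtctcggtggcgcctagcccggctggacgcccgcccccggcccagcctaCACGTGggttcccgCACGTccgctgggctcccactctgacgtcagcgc
Ldhb, chr6:142507958-142508207, minus strand: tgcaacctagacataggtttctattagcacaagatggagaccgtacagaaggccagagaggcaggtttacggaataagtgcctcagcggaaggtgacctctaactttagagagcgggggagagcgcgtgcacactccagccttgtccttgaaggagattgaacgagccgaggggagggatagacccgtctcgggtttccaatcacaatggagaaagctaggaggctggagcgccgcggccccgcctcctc
The Ldha window held 5 matches, counted over both strands, and 2 copies of CACGTG. The Slc16a1 window held 2 matches in 1 CACGTG, the Slc16a3 window held 2 matches and no CACGTG, and the Ldhb window held 0. A second Ldha start, at chr7:46846832-46847081, also held 0. ACGTG occurred in 16.6% and CACGTG in 6.02% of 32851 mouse promoters of the same length. AGGTCA, a hexamer bound by many nuclear receptors, had 1 match in the Ldhb window and 0 in the others, and it occurred in 14% of promoters. A match describes the letters of the window and is not evidence of binding.

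Per kilobase of exon, the dehydrogenase gene Ldhb had the highest level of the 7 genes in wild-type cortex. Over 6 wild-type libraries it averaged 197 CPM per kb, followed by Bsg at 147, Ldha at 54.9 and Slc2a3 at 19.7 CPM per kb. Among the carriers, Slc16a1 averaged 9.65, Slc16a7 7.07 and Slc16a3 0.315 CPM per kb. Each neighbouring pair stood in this order in 6 of 6 libraries, and no neighbouring ranges overlapped. The narrowest gap between neighbouring ranges was that of Slc16a1 and Slc16a7, where the lowest Slc16a1 library had 8.46 and the highest Slc16a7 library 8.11 CPM per kb. Lengths are of all annotated exons joined, 11839 bases for Slc16a7 and 4426 for Slc16a1, and which exons the cortex uses was not tested.

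**Figure D1:**
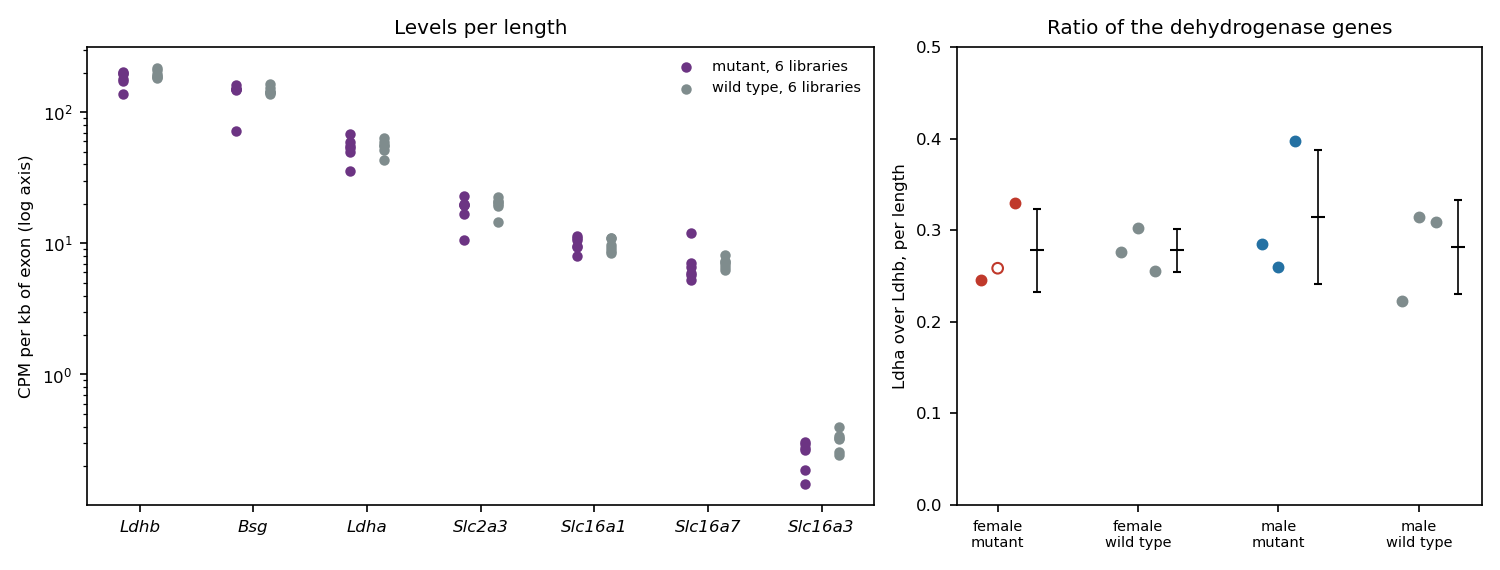
Levels of the 7 genes per kilobase of exon in 6 mutant and 6 wild-type libraries (log axis), and the per-length ratio of Ldha to Ldhb in each library by sex and genotype, with bars of the mean ± SD of 3 and an open point for female mutant 3. Ldhb stands highest and Slc16a3 lowest in wild-type cortex, at 197 and 0.315 CPM per kb, and the ratio lies between 0.223 and 0.398.

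Slc16a1 (MCT1; ENSMUSG00000032902, GRCm38 chr3:104638668-104658462, plus strand) was lower in female mutants than in female wild types and higher in male mutants than in male wild types. It had 41.9, 35.6 and 41.9 CPM in female mutants 1, 3 and 6, against 48.3, 48.4 and 42.9 CPM in female wild types 2, 4 and 5. In males it had 50.3, 49.0 and 47.2 CPM in mutants 7, 10 and 27, against 40.8, 37.5 and 38.4 CPM in wild types 8, 12 and 13. The genotypes did not overlap in either sex, and their order was reversed between the sexes. Slc16a1 averaged 39.8 ± 3.63 CPM in female mutants against 46.5 ± 3.13 CPM in female wild types, and 48.9 ± 1.56 CPM in male mutants against 38.9 ± 1.70 CPM in male wild types (SD, n = 3 each). The log2 difference was -0.21 (SE 0.103) in females and 0.33 (SE 0.101) in males, with adjusted p of 0.426 and 0.9999 by edgeR's quasi-likelihood test with Benjamini-Hochberg adjustment. The difference between these effects was -0.54 (SE 0.144) and did not pass the test (adjusted p = 0.555).

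Leaving out female mutant 3 left this pattern at -0.15 (SE 0.0794) in females and 0.33 (SE 0.0712) in males. Over all settings tried, the log2 difference of Slc16a1 stayed below 0 in females, at -0.41 to -0.14, and above 0 in males, at 0.31 to 0.37. The lowest adjusted p of Slc16a1 was 0.0969, by DESeq2 in males without female mutant 3. Over both sexes the difference was 0.06 (SE 0.104), 0.12 without female mutant 3, and -0.02 when library totals replaced TMM scaling. With library totals the median of all genes in females lay at -0.21, and relative to that median Slc16a1 lay at -0.20. The genes Gm43581 and Gm43585 lie in its introns on the same strand, so reads from unspliced RNA there are uncertain.

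The sum of 5 red-cell markers, globin genes and Alas2, followed the same order as Slc16a1. It was 18.2 to 32.2 CPM in female mutants against 34.1 to 44.2 CPM in female wild types, and 40.7 to 52.2 CPM in male mutants against 20.7 to 27 CPM in male wild types. Each of the 5 markers was lower in female mutants and higher in male mutants by the fitted difference, with and without female mutant 3. Their part in the Slc16a1 difference was not tested. The 5 endothelial markers summed to 168 to 199 CPM in female mutants and 188 to 199 in female wild types, and to 189 to 195 in male mutants and 184 to 206 in male wild types, so the genotypes overlapped. The 5 oligodendrocyte markers overlapped too, at 4162 to 6171 CPM in female mutants and 4879 to 5251 in female wild types. In males they summed to 4092 to 6335 CPM in mutants and 4430 to 5114 in wild types. By the fitted difference 4 of these 5 were lower in female mutants, 3 without female mutant 3, and all 5 were higher in male mutants. Of the endothelial markers 4 were lower and 1 higher in female mutants, and 3 were higher and 2 lower in male mutants. The part of these 2 sets in the Slc16a1 difference was not tested either.

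**Figure D2:**
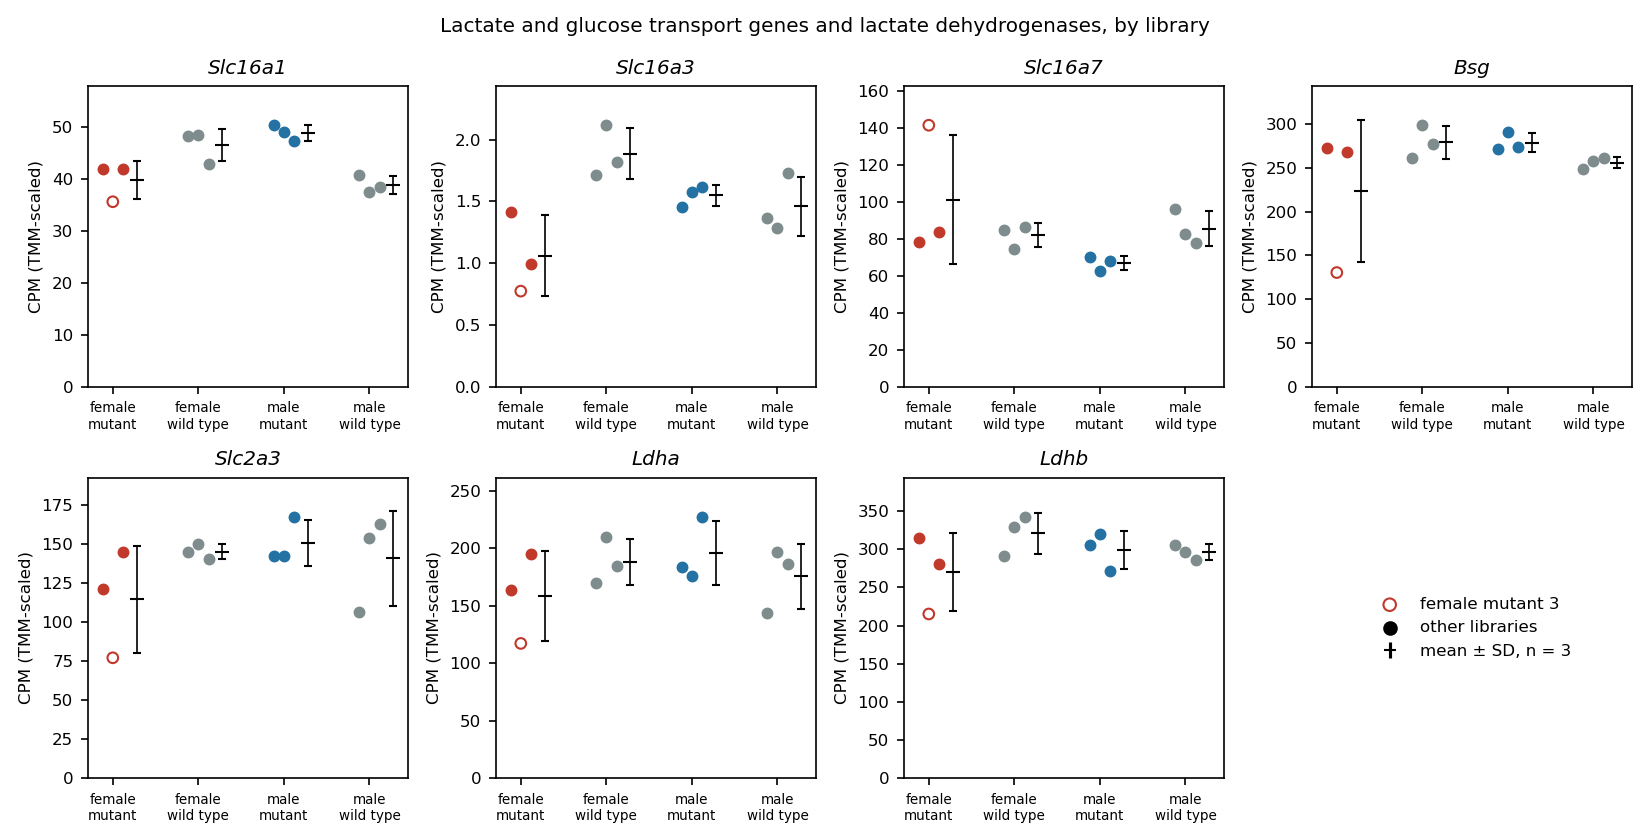
CPM of each of the 7 genes in every library, with mutants left of wild types within females and within males; each point is 1 mouse, the open point is female mutant 3, and bars give the mean ± SD of 3. For Slc16a1 the mutant points lie below the wild-type points in females and above them in males, and female mutant 3 stands apart for Slc16a7, at 141 CPM, and for Bsg, at 130.5 CPM.

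Slc16a3 (MCT4; ENSMUSG00000025161, chr11:120948480-120960868, plus strand) was scarce. It had 1.42, 0.774 and 0.993 CPM in female mutants, against 1.72, 2.12 and 1.82 CPM in female wild types, and these did not overlap. In males it had 1.46, 1.58 and 1.61 CPM in mutants and 1.36, 1.29 and 1.73 CPM in wild types, which overlapped. These levels rest on 30 to 55 counts in 11 libraries and on 2 counts in female mutant 3, below its floor. The log2 difference was -0.71 (SE 0.249, adjusted p = 0.418) in females and 0.09 (SE 0.232) in males. Without female mutant 3 it was -0.65 in females, the same direction. The effect in females minus that in males was -0.80 (SE 0.340, adjusted p = 0.555). The summed CPM of the 5 astrocyte markers ran the other way in females, at 1202 to 1326 CPM in female mutants against 1059 to 1114 CPM in female wild types, and in males they summed to 1219.7 to 1394 CPM in mutants against 1011 to 1171 CPM in wild types. By the fitted differences 4 of the 5 were higher and 1, Aldh1l1, lower in mutants of either sex. Their part in the Slc16a3 values was not tested.

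Slc16a7 (MCT2; ENSMUSG00000020102, chr10:125219270-125389465, minus strand) was lower in every male mutant than in any male wild type. It had 70.3, 62.7 and 68.0 CPM in male mutants, against 96.0, 82.7 and 77.6 CPM in male wild types, a log2 difference of -0.35 (SE 0.189). Female mutants had 78.5, 141 and 83.7 CPM and female wild types 84.9, 74.5 and 86.5 CPM, where the 141 CPM belonged to female mutant 3. The groups overlapped in females, and the log2 difference was 0.28 with that library and -0.02 without it. The effect in females minus that in males was 0.63 (SE 0.268, adjusted p = 0.555), and 0.33 (SE 0.134, adjusted p = 0.459) without female mutant 3. The 5 neuronal markers summed to 4685 to 5148 CPM in male mutants against 5348 to 6085 CPM in male wild types, and reached 13472 CPM in female mutant 3. Of the 5, 4 were lower and Slc17a7 was higher in male mutants by the fitted difference, while 3 were higher and 2 lower in female mutants. In females the differences ran from -0.61 for Slc17a7 to 1.13 for Snap25, and without female mutant 3 from -0.31 for Gad1 to 0.11 for Snap25. Their part in the Slc16a7 values was not tested. Gm45604 and Gm47862 overlap Slc16a7 on the other strand, and without the strand setting of the counting their reads cannot be told apart from its own.

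Bsg (basigin; ENSMUSG00000023175, chr10:79704491-79711969, plus strand) had 273, 130.5 and 268 CPM in female mutants and 261, 299 and 278 CPM in female wild types. Male mutants had 271, 291 and 273 CPM and male wild types 249, 258 and 261 CPM. The male groups did not overlap, with mutants higher by 0.12 on the log2 scale (SE 0.208), while the female groups overlapped. In the fit without female mutant 3 the male difference was also 0.12 (SE 0.067). The female difference of -0.31 (SE 0.209) rested on the 130.5 CPM of female mutant 3 and was -0.05 without it.

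Slc2a3 (GLUT3; ENSMUSG00000003153, chr6:122727809-122801640, minus strand) had 121, 77.1 and 145.0 CPM in female mutants and 145.0, 149.6 and 140.1 CPM in female wild types. Male mutants had 142, 142 and 167 CPM and male wild types 106, 153 and 163 CPM. Genotypes overlapped in both sexes, and the low values were those of female mutant 3 and male wild type 8. Slc2a3 differed by -0.33 (SE 0.207) in females, -0.12 without female mutant 3, and 0.10 (SE 0.205) in males on the log2 scale. Over all settings tried, its male difference lay between -0.07 and 0.21. The pseudogene Gm4482 lies within Slc2a3 on the same strand, so reads shared with it are uncertain.

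Ldha (ENSMUSG00000063229, chr7:46841475-46855627, plus strand) had 163, 117 and 195 CPM in female mutants and 170, 210 and 184 CPM in female wild types. Male mutants had 184, 176 and 227 CPM and male wild types 144, 197 and 186 CPM, and the genotypes overlapped in both sexes. Its log2 difference was -0.23 (SE 0.186) in females, -0.07 without female mutant 3, and 0.16 (SE 0.185) in males. Over all settings tried, the male difference of Ldha lay between 0.03 and 0.25. The annotated copies Ldha-ps and Ldha-ps2 resemble it in sequence, and reads shared with them could be split.

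Ldhb (ENSMUSG00000030246, chr6:142490249-142507957, minus strand) had 315, 215 and 280.5 CPM in female mutants and 291, 329 and 343 CPM in female wild types. Male mutants had 306, 320 and 271 CPM and male wild types 306, 297 and 286 CPM, which overlapped as in females. The log2 difference was -0.24 (SE 0.136) in females, -0.11 without female mutant 3, and 0.01 (SE 0.135) in males.

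The ratio of Ldha to Ldhb, both per kilobase, compares the levels of the subunit genes. Its size rests on the joined lengths of all annotated exons, 3310 bases for Ldha and 1570 for Ldhb. Which exons the cortex uses was not tested. Before division by length, wild types averaged 182 CPM for Ldha and 309 CPM for Ldhb. The ratio was 0.296 ± 0.0580 in mutants and 0.280 ± 0.0358 in wild types (SD, n = 6 each), and the ranges overlapped. Between sexes it was 0.278 ± 0.0323 in females and 0.298 ± 0.0593 in males (SD, n = 6 each), a log2 difference of -0.09. An exact two-sided permutation test within genotype gave p = 0.54 over 400 labellings, of which the smallest possible p is 0.005. Leaving out male mutant 27, whose ratio of 0.398 was the highest, brought the log2 difference to 0.00517.

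Females and males were compared over both genotypes as the test independent of the choice of genes. None of the 7 members passed by edgeR's quasi-likelihood test (0 at an unadjusted p under 0.05; adjusted p 0.897 to 0.999), by DESeq2 or by limma-voom, against 0.0389% of all 18016 genes tested. The log2 differences, female over male, ran from -0.17 (SE 0.154) for Slc2a3 to 0.25 (SE 0.159) for Slc16a7. Slc16a7 averaged 91.5 ± 24.8 CPM in females and 76.2 ± 12.0 CPM in males (SD, n = 6 each). Without female mutant 3 the differences ran from -0.05 for Slc2a3 to 0.10 (SE 0.0794) for Slc16a7, and 0 members passed (adjusted p = 0.9997 for each).

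Set beside the other genes, the members' genotype values are as follows. Over both sexes 0 of 7 members passed an adjusted p under 0.05, against 0.00555% of genes with 12 libraries and 0.0108% without female mutant 3. Within females, within males and for their difference the background was 0% with 12 libraries. Without female mutant 3, 1 of 18461 genes passed in males and 0 in females or for the difference. In these comparisons 0 members passed in either setting. At an unadjusted p under 0.05, edgeR had 0 members over both sexes, 1 in females, 1 in males and 3 for the difference, where 3.96%, 11.8%, 2.78% and 7.67% of all genes had such a p. Without female mutant 3 the members numbered 1, 1, 2 and 3 in the same order, against 7.46%, 9.41%, 8.43% and 10.6% of genes. DESeq2, limma-voom and every other setting also called 0 members. Genotypes did not overlap in females for 2 of 7 members, Slc16a1 and Slc16a3, against 22.5% of genes, or 30.1% without female mutant 3. In males they did not overlap for 3 of 7, against 13.5% of genes. Slc16a1 did so in both sexes and in opposite directions, as 1.98% of genes did with 12 libraries and 2.17% without female mutant 3. Since earlier values of this contrast chose the genes, nothing is read from these shares.

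**Figure D3:**
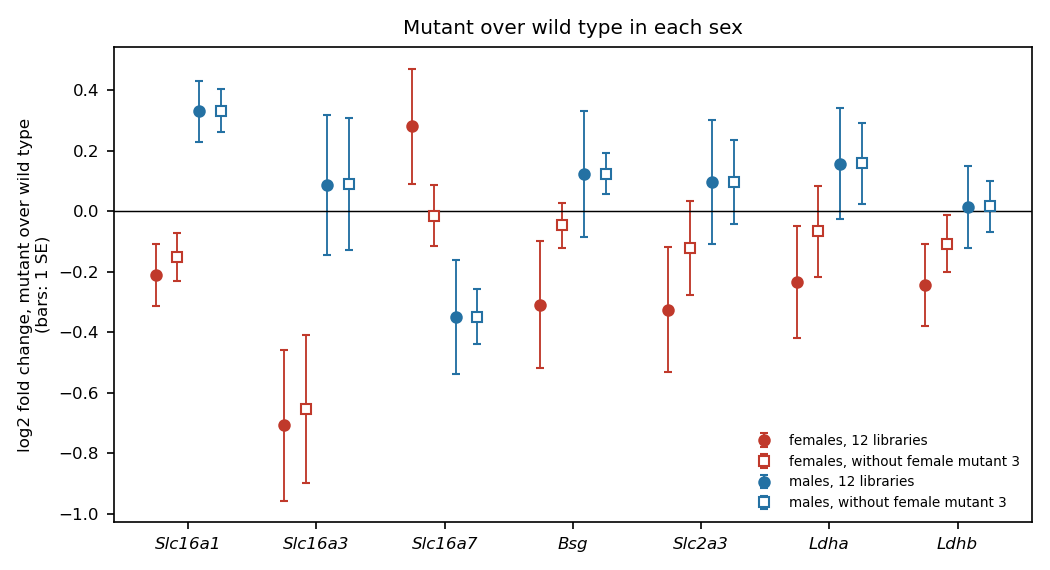
Log2 difference, mutant over wild type, of each of the 7 genes in females and in males, with bars of 1 standard error, from all 12 libraries (filled) and without female mutant 3 (open). Slc16a1 lies at -0.21 in females and 0.33 in males, and the female values of all 7 genes move toward 0 when female mutant 3 is left out.

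The pathway around these genes was read from 6 lists with 101 genes in all. Of these, 93 genes were tested through 94 identifiers, since Aldoa has 2 in the table. Of the 94, edgeR's quasi-likelihood test called 0 in either direction over both sexes, in females or in males, with 3, 9 and 1 at an unadjusted p under 0.05. Without female mutant 3 these numbered 9, 12 and 6, and 0 were called, beside the shares of all genes given above. DESeq2 had 5, 11 and 1 at that level and limma-voom 5, 8 and 1, and both called 0. Of the 21 glycolysis enzymes listed, 20 were tested, through 21 identifiers, and Pklr was not. In female mutants 4 identifiers had higher and 17 lower values, with a median log2 difference of -0.33, while without female mutant 3 these were 6 and 15, with a median of -0.08. In males 19 were higher and 2 lower, with a median of 0.12. Over all genes the medians were -0.03 in females, -0.01 in females without that library and 0.005 in males. Genes of glucose entry, 16 tested of 18, had a median of -0.26 in females, -0.13 without female mutant 3, and 0.04 in males. Genes of pyruvate entry into the mitochondrion, 14 of 14, lay at 0.06, 0.01 and -0.01 in the same order.

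Other monocarboxylate carriers, 15 tested of 19, had medians of -0.21 in females, -0.16 without female mutant 3, and -0.05 in males. Glycogen genes, 13 of 14, lay at -0.12, -0.10 and 0.07, and hypoxia-response genes, 15 of 15, at 0.02, -0.03 and -0.03. Among single genes, the hexokinase relative Hkdc1 averaged 5.42 ± 1.19 CPM in mutants and 8.36 ± 1.30 CPM in wild types (SD, n = 6 each). Its log2 difference was -0.59 (SE 0.158, adjusted p = 0.950 by edgeR's quasi-likelihood test with Benjamini-Hochberg adjustment). The carrier Slc16a6 averaged 17.5 ± 3.56 CPM in mutants and 20.5 ± 2.71 CPM in wild types. Pdk4, a kinase that switches off pyruvate dehydrogenase, averaged 13.4 ± 2.46 CPM in mutants and 10.9 ± 1.26 CPM in wild types. Neither passed the test. Pdp1, the phosphatase that switches the same enzyme on, averaged 198 ± 31.8 CPM in mutants and 236 ± 36 CPM in wild types. Slc16a12, a creatine carrier, averaged 2.15 ± 0.810 CPM in mutants and 2.93 ± 0.327 CPM in wild types. The log2 difference of Slc16a12 was -0.67 in females, -0.56 without female mutant 3, and -0.13 in males. That of Pdk4 was 0.44 in females, 0.40 without female mutant 3, and 0.11 in males. No gene of the lists passed the test of a difference between these effects.

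The other genes that the naming rule picked differed less, apart from 2 that spread widely among mutants. Hif1a, the oxygen-regulated subunit of hypoxia-inducible factor, averaged 106 ± 36 CPM in mutants and 87.8 ± 11.9 CPM in wild types, a log2 difference of 0.25 that was 0.07 without female mutant 3. Eno3, an enolase known from muscle, averaged 4.38 ± 2.70 CPM in mutants and 3.60 ± 0.857 CPM in wild types. Its log2 difference was 0.41 (SE 0.311), and 0.54 (SE 0.217) without female mutant 3. The log2 differences of Slc2a13, Pfkfb2, Gbe1 and Egln1 lay between -0.15 (Egln1) and 0.12 (Gbe1), and without female mutant 3 between -0.12 (Slc2a13) and -0.00065 (Gbe1). None of these genes passed the test (adjusted p 0.950 to 0.954 by edgeR's quasi-likelihood test with 12 libraries).

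**Figure D4:**
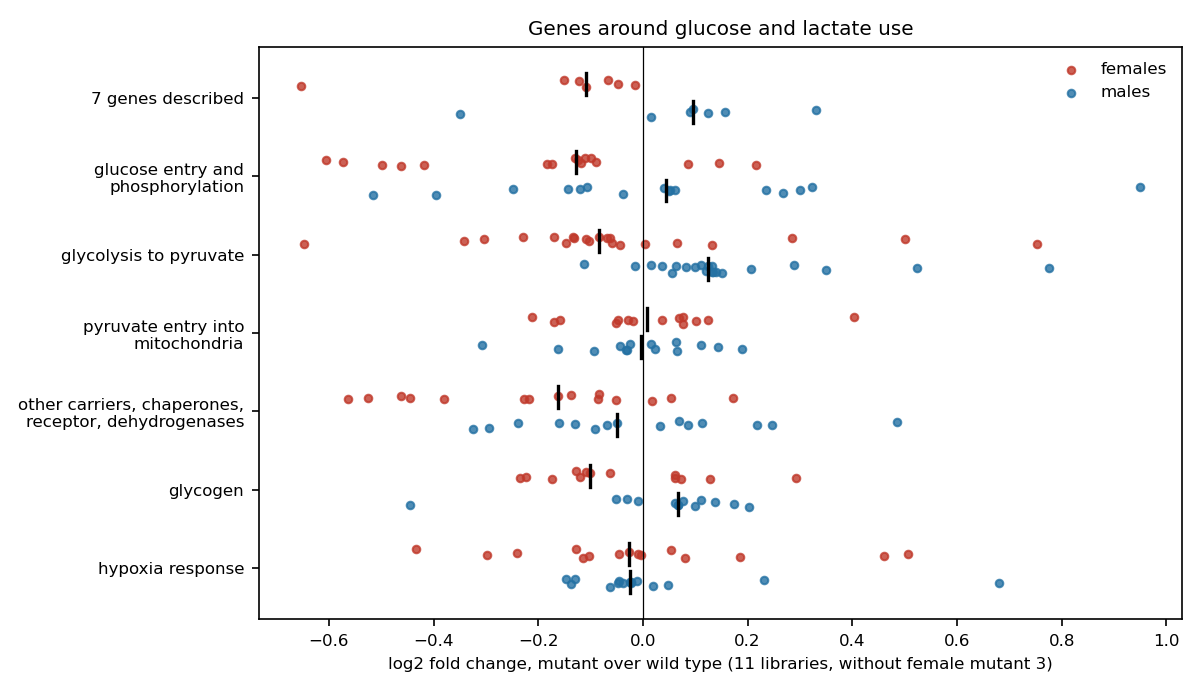
Log2 differences, mutant over wild type, of the 7 genes and of the genes of each pathway list, in females and in males, from the 11 libraries without female mutant 3; each point is 1 gene identifier and each black line a median. The glycolysis median lies at -0.08 in females and 0.12 in males.

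Across the 11 libraries without female mutant 3, genes whose level followed each member most closely were sought among 9581 protein-coding genes, after removing group means. Slc16a7 and Senp6 had a Pearson r of 0.995 on log2 CPM. Slc2a3 and Tada1 had 0.990, Ldha and the glutamate transporter Slc17a7 0.986, and Ldhb and Trap1 0.979. Slc16a1 was closest to Zfp423 and Prex2, both at 0.920, Slc16a3 to Ppa2 at 0.930 and Bsg to Tmem201 and Smg9, both at 0.942. These are the highest of many correlations over libraries that share depth and tissue composition, so they are given as a description with no p.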

How the data were processed

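The authors deposited raw counts per gene for the 12 libraries. The submitters' processing notes name the build GRCm38.p6 and the tools Trimmomatic 0.36, HISAT2 2.1.0, HTSeq 0.11 and Cufflinks. Whether counting used strand, and from which annotation release, is not given in the sources used here. Symbols come from GENCODE M21 for 54165 of 54232 identifiers; the remaining 67 make up 0.0297% of a library or less.

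Genes were kept by filterByExpr (18016), scaled by TMM and tested with edgeR 4.0.16 in R 4.3.3 (quasi-likelihood, Benjamini-Hochberg over all tested genes, called at 0.05), with sex and genotype as terms, or 1 mean per group for effects within a sex and their difference. CPM uses TMM-scaled totals. The SE given with edgeR values was derived as the absolute log2 difference divided by the square root of the F statistic. The floor for 0 is 3 counts. The labels give separate mice, and counts of libraries of 1 group differed beyond sampling noise (chi-square per degree of freedom 9.01 to 153, or to 39.8 without female mutant 3). The procedure was tested on simulated counts in which all libraries shared gene means apart from planted changes. The composition of female mutant 3 was therefore not simulated. The members and lists were chosen with earlier results of these data known. Named are all members, the 2 genes of smallest p in each list with a mean of at least 1 CPM (1 is not reported here), and the 2 genes most like each member. Alternatives were DESeq2 1.42.0, limma-voom (limma 3.58.1) with and without library weights, other scalings and filters, no sex term and leaving out each library.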

Additional observations from a re-analysis of the deposited data

Results flagged for a closer look

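Among 16 groups of 6 libraries examined for a value standing far from the rest, 2 values did so, both in female mutant 3: Slc16a7 at 141 CPM and Bsg at 130.5 CPM among the 6 mutants. The threshold, Dixon's critical value, is built so that chance marks about 1 in 20 groups. That library also has the lowest depth and the highest mitochondrial share, and the part of these in its values was not tested.

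The genotype effect on Slc16a1 in females minus that in males was -0.54 on the log2 scale. The difference itself was tested and did not pass (adjusted p = 0.555 by edgeR's quasi-likelihood test), and it lay between -0.77 and -0.47 over the alternatives. Without female mutant 3 it was -0.48 (adjusted p = 0.459).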

How the results depend on the processing

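Under every alternative 0 of the 7 members passed the test in any comparison. Of 609 recomputed member differences, 589 moved by less than 1 SD between libraries and 20 by more, 8 of these in fits without female mutant 3. Leaving out 1 library at a time gave a sex difference of the Ldha to Ldhb log2 ratio between -0.17 (without male wild type 8) and 0.00517 (without male mutant 27), and a log2 difference of Gbe1, a glycogen branching enzyme, between -0.00065 (without female mutant 3) and 0.23. The cause was not tested. DESeq2 and the weighted limma-voom fit without female mutant 3 were chosen after seeing the data. No paired analysis was possible because mutants and wild types have no animal number in common. A group left with 2 libraries shared the spread of the other groups. At 2 to 55 counts per library, Slc16a3 is the member limited most by depth.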
